A study of Mus musculus with 18 samples.

Results

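This account compares 2 mouse mammary cell lines grown alone: MMTV-neu, a tumour line, and Comma-D, a non-tumorigenic mammary epithelial line. It uses 6 of the series' 18 arrays, the 3 titled as MMTV-neu and the 3 titled as Comma-D, chosen by those titles and not by any measured value. The other 12 arrays are of erbB2-positive and erbB2-negative fractions sorted from co-cultures of the lines. Their values enter the fit as a shared estimate of the spread, and the 1:1 fractions are set beside the lines below. Values are log2 robust multi-array average (RMA) values of 19938 genes, with 1 probe set per gene.

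The labels call Comma-D normal, without erbB2 and without phosphorylated erbB2. They call MMTV-neu cancer, with both. The lines also differed in medium. MMTV-neu was kept in DMEM with 10% fetal bovine serum. Comma-D was kept in DMEM/F12 with 2% serum, 10 ug/ml insulin and 5 ng/ml EGF. Each line had its own medium, so line and medium cannot be told apart in any difference below. The labels give the co-culture fractions the Comma-D medium, and they describe detachment with trypsin and an anti-erbB2 bead separation before RNA extraction. They do not say whether the 3 arrays of a line came from separate cultures. The p-values and SEs measure only the spread between arrays of a group, pooled over all 6 groups, co-culture fractions included. That spread may be technical, and for a given gene it can differ from the spread within the 2 lines. MMTV-neu is by its name a line from mice in which the mouse mammary tumour virus promoter drives neu; the labels give neither the species of the neu sequence nor the number of clones in the line.

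The mammary epithelium has an inner luminal layer, marked by the simple keratins Krt8 and Krt18, and an outer basal layer, marked by Krt5 and Krt14 and by contractile genes. The factors Foxa1, Gata3 and Esr1 belong to the hormone-responsive luminal cells. The erbB2 receptor has no known ligand of its own and signals in pairs with Egfr, Erbb3 or Erbb4, largely through the ERK and PI3K pathways. Comma-D is known as a mixed line that retains basal and luminal features and can form ducts in a cleared fat pad.

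The 2 sets of arrays had different spreads. The standard deviation of all probe sets was 1.97 to 1.99 on the Comma-D arrays and 1.51 to 1.55 on the MMTV-neu arrays. The median gene value was 6.33 to 6.36 and 6.77 to 6.79. The narrower MMTV-neu spread went with a difference that depended on level. Genes were ranked by Comma-D level and cut into 4 bins of equal size. In the lowest bin the median difference, MMTV-neu minus Comma-D, was 0.61 on the log2 scale. It was 0.95 in the next bin, 0.02 in the one after and -1.37 in the highest. Of the 4985 genes in the highest bin, 62.2% were at least 2-fold lower in MMTV-neu and 68 genes (1.36%) at least 2-fold higher. Of the 9969 genes in the lower 2 bins, 29.7% were at least 2-fold higher and 12 genes (0.12%) at least 2-fold lower. When genes were ranked by the mean of both lines the bin medians were 0.56, 0.92, -0.04 and -0.95. They were 0.49, 0.72, 0.03 and -0.14 when genes were ranked by MMTV-neu level. RNA quality values are not used here, and the part of array quality in this slope was not tested.

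**Figure D1:**
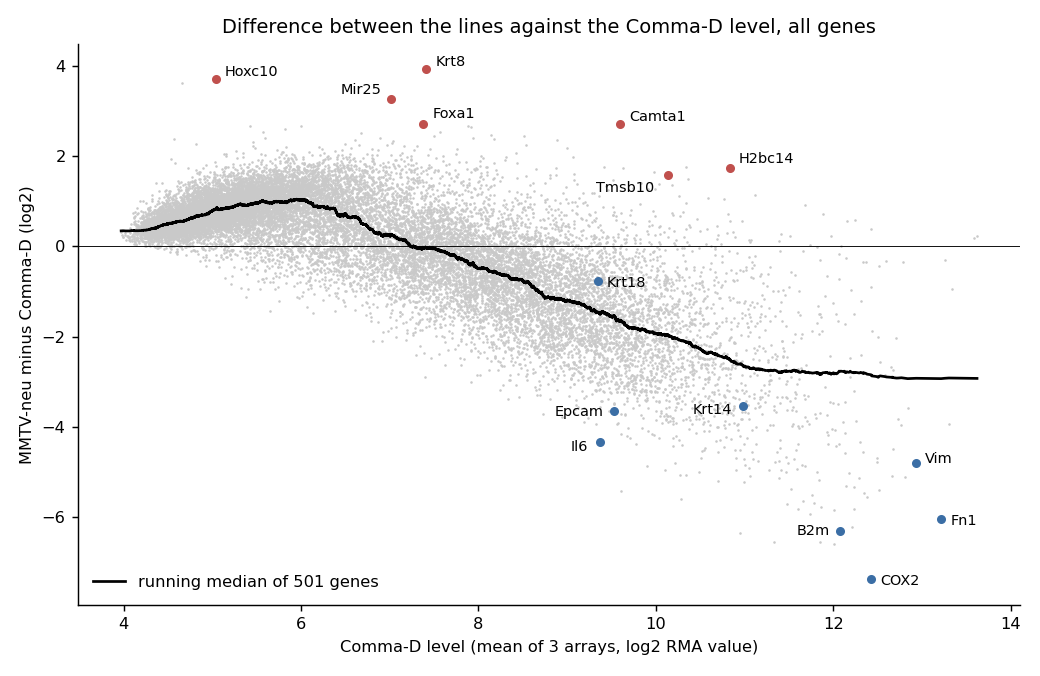
Each grey point is a gene, with its Comma-D level (mean of 3 arrays, log2 RMA value) on the horizontal axis and MMTV-neu minus Comma-D (log2) on the vertical axis; the line is the running median over genes of neighbouring level, and coloured points are named genes, red higher and blue lower in MMTV-neu. The line lies above 0 for weakly expressed genes and below 0 for abundant ones, with Krt8, Hoxc10, Foxa1 and Camta1 above the cloud and COX2, B2m and Fn1 below it.

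With limma, 86.8% of all genes had an adjusted p under 0.05 and in 87.2% of genes the 3 and 3 arrays did not overlap, so neither criterion separates a gene from the background. A gene is called 2-fold higher or lower here when its adjusted p is under 0.05 and its difference is at least 1 log2 unit. That held for 3800 genes higher in MMTV-neu (19.1%) and 3707 lower (18.6%). These counts rest on the deposited scale. After the arrays were centred on reference genes, all differences moved up by 1.35, and the share of higher genes among those called went from 50.6% to 93.1%. That share was 39.98% after cyclic loess normalization and 37.7% without the least expressed genes. The median difference over all genes was 0.40 as deposited, 1.75 after centring, 0.10 after quantile normalization and 0.02 after cyclic loess. Each gene was therefore also set against the median of the genes nearest to it in Comma-D level. This level-matched difference has a median of 0.0041 over all genes, and by the same criteria it called 1366 genes higher (6.85%) and 1638 lower (8.22%). Matching removed the median slope along Comma-D level but not the change of spread with level. Ranked by MMTV-neu level, the level-matched bin medians were -0.11, -0.22, -0.11 and 0.63. Ranked by the mean of both lines, they were -0.043, -0.026, -0.072 and 0.31. From the lowest to the highest bin by Comma-D level, the SD of the level-matched difference was 0.30, 0.52, 0.81 and 1.06. A share over all genes is therefore not a like background for a list of abundant genes. For such a list, the count lower as deposited is to be read against the 62.2% lower in the highest bin. That bin held 31 of 33 actin genes, 50 of 54 ribosomal, 30 of 34 proteasome and 53 of 65 nuclear-encoded respiratory chain genes. It also held 20 of 26 cholesterol and fatty acid, 22 of 30 TGF-beta, 15 of 21 FOXO and 20 of 33 other matrix genes. The text gives the difference first and then the level-matched difference, both on the log2 scale; median values of lists are to be read against the medians over all genes given here.

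Krt8 was among the 25 genes with the highest level-matched difference that passed the naming rule given below. Krt8 encodes the keratin that pairs with Krt18 in luminal cells. Its values were 7.38, 7.70 and 7.15 on the Comma-D arrays and 11.22, 11.33 and 11.46 on the MMTV-neu arrays. The 2 sets did not overlap, a condition of that rule, and the difference was 3.93 ± 0.19 (SE; 15.2-fold, adjusted p = 4.5e-11), with a level-matched difference of 3.95. Its partner did not move with it. Krt18 was at 9.34 ± 0.03 (SD, n = 3) in Comma-D and 8.57 ± 0.18 (SD, n = 3) in MMTV-neu, a difference of -0.77 that turned to 0.58 after centring, and a level-matched difference of 0.69. Krt19, a further simple keratin, rose by 1.25 (adjusted p = 6.0e-07), with a level-matched difference of 0.31. Of the 7 simple keratins measured, 2 were at least 2-fold higher and none lower, and Krt8 was the 1 called level-matched.

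The basal pair Krt5 and Krt14 and their relative Krt17 were abundant in Comma-D and lower in MMTV-neu. Krt14 was at 10.99, 10.99 and 10.96 in Comma-D and at 7.49, 7.29 and 7.52 in MMTV-neu, without overlap. It fell by 3.55 (11.7-fold, adjusted p = 7.0e-12), and its level-matched difference was -0.91. Krt5 fell by 2.06, a call lost after cyclic loess (difference -0.27, adjusted p = 0.46 with limma), with a level-matched difference of -0.24 (adjusted p = 0.49), and Krt17 fell by 2.49, with -0.49 (adjusted p = 0.073). None of the 3 passed the level-matched call. Of 12 basal and stratified keratins, 4 were at least 2-fold higher and 3 lower, with a median difference of 0.12, and 1 was lower level-matched. Of 14 basal and myoepithelial markers, which include smooth muscle actin Acta2 and the laminin receptor subunit Itga6, 9 were lower and 1 higher, with a median of -1.998 and a level-matched median of -0.49. Level-matched, 2 were lower, none higher and 12 not called. Those 2 were Acta2, which fell by 3.88 (level-matched -1.08), and Itga6, which fell by 3.37 (level-matched -1.49). Of the 14, 10 lay in the highest bin by Comma-D level, where 62.2% of all genes were at least 2-fold lower.

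Luminal transcription factors were mixed. Foxa1, a pioneer factor that opens chromatin for the oestrogen receptor, was at 7.20, 7.70 and 7.23 in Comma-D and at 9.82, 10.18 and 10.31 in MMTV-neu. All MMTV-neu arrays were above all Comma-D arrays, and Foxa1 rose by 2.73 ± 0.21 (SE; 6.62-fold, adjusted p = 1.1e-08; level-matched 2.76). Esr1, the oestrogen receptor, rose by 1.04 (level-matched 0.88). Gata3 went from 9.87 to 9.003, a difference of -0.87 that turned to 0.48 after centring, with a level-matched difference of 0.99 (0.31, adjusted p = 0.12 with limma, when matched by the mean of both lines). The 2 AP-2 genes on the list differed from each other: Tfap2a was at 9.63 and 9.99 (difference 0.37, level-matched 2.04), while Tfap2b fell from 9.77 to 6.74 (difference -3.03, level-matched -1.21). Of the 27 epithelial and luminal factors, 7 were at least 2-fold higher and 5 lower. Level-matched, 6 were higher and 1 lower.

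Among 23 hormone and nuclear receptors, 8 were higher and 5 lower, and level-matched 3 were higher and 1 lower. Nr2f2, an orphan nuclear receptor, rose by 1.66 (level-matched 2.05), and Esrra, a regulator of mitochondrial genes, rose by 1.70 (level-matched 1.72). The growth hormone receptor Ghr fell from 11.28 to 6.32 (difference -4.96, 31.0-fold; level-matched -2.20). Of 13 luminal markers in the cell type list, 6 were higher and 2 lower, and the list's mean level ran from 7.80 to 7.90 over the Comma-D arrays and from 8.09 to 8.17 over the MMTV-neu arrays. The mean over the basal and myoepithelial markers ran from 9.07 to 9.09 and from 7.34 to 7.52.

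**Figure D2:**
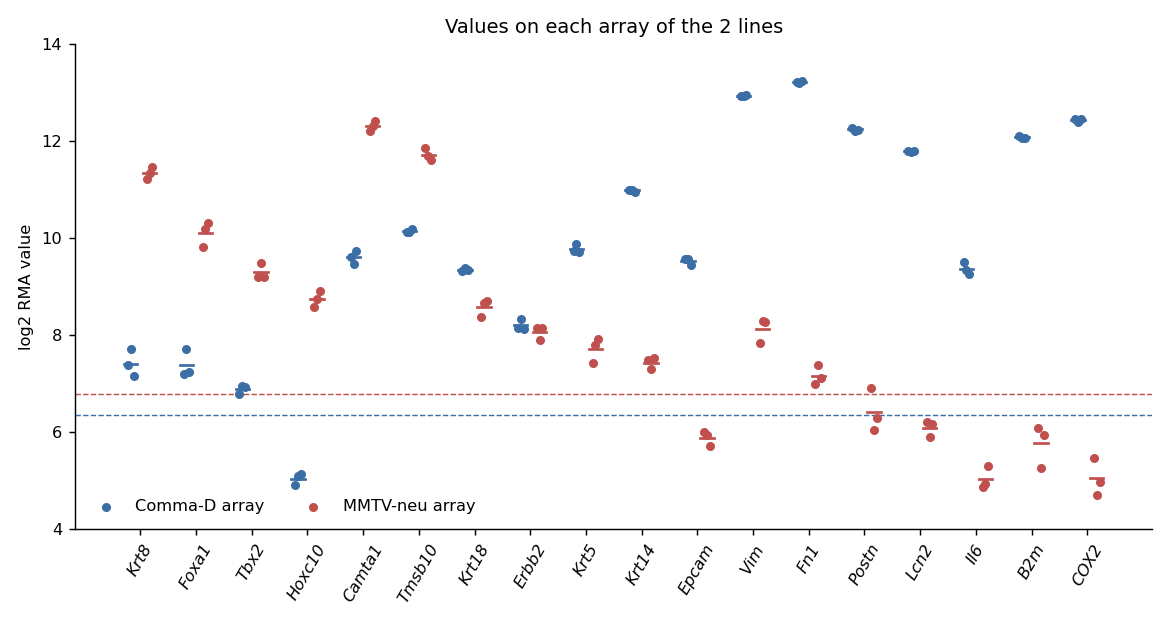
Values of 18 genes (log2 RMA) on the 3 Comma-D arrays in blue and the 3 MMTV-neu arrays in red; short bars are means and dashed lines the median gene of each line. Krt8, Foxa1, Tbx2 and Hoxc10 lie higher on all MMTV-neu arrays, Erbb2 overlaps, and Il6, B2m and COX2 lie below the median gene of the MMTV-neu arrays.

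The labelled receptor did not separate the lines. Erbb2 was at 8.15, 8.32 and 8.12 in Comma-D and at 8.14, 7.89 and 8.14 in MMTV-neu. The 2 sets overlapped, and the difference was -0.14 ± 0.10 (SE; adjusted p = 0.18; level-matched 0.43). The probe set carries the mouse gene's name, and whether it reads a neu transgene was not tested. Erbb3, the kinase-impaired partner of erbB2, fell by 1.11 (level-matched 0.02), a fall that turned to a difference of 0.24 after centring. Egfr fell by 1.56 (level-matched -0.87), a call lost after centring (difference -0.21). Among their ligands, Ereg fell by 1.23 (level-matched -1.19), a difference of 0.13 after centring, and Tgfa was at 7.91 and 8.43 (difference 0.53). Of the 14 genes of this list, 2 were higher and 3 lower, and 1 was lower level-matched.

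Genes downstream of ERK also went both ways. Egr3, an immediate early transcription factor, rose by 1.40 (adjusted p = 1.2e-05; level-matched 2.55), and Dusp5, a nuclear ERK phosphatase, rose by 1.37 (level-matched 1.86). Dusp6, the cytoplasmic ERK phosphatase, was at 10.60, 10.53 and 10.65 in Comma-D and at 5.94, 6.66 and 6.91 in MMTV-neu. It did not overlap and fell by 4.09 (17.04-fold, adjusted p = 3.5e-11; level-matched -1.72), and the early response gene Ier3 fell by 2.55 (level-matched -1.29). Of 25 genes on the ERK list, 17 were lower and 2 higher, but level-matched 2 were lower and 2 higher. Of the 25, 19 lay in the highest bin by Comma-D level, where 62.2% of all genes were at least 2-fold lower.

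Hox genes encode homeodomain factors, laid out in 4 clusters, that keep positional identity. Hoxc10 was at 4.90, 5.09 and 5.14 in Comma-D and at 8.58, 8.75 and 8.91 in MMTV-neu, without overlap. It rose by 3.70 ± 0.23 (SE; 13.0-fold, adjusted p = 7.9e-10; level-matched 2.87). Of 37 Hox genes measured, 24 were at least 2-fold higher and none lower. Most Hox genes lay among the dimmer genes of Comma-D, where 29.7% of all genes were called higher. The median difference was 1.17 and the level-matched median 0.31, and level-matched 5 were higher and none lower. The count was 8 of 10 in the Hoxa cluster, 4 of 9 in Hoxb, 8 of 9 in Hoxc and 4 of 9 in Hoxd. Of the other Hox genes called level-matched, Hoxc6 rose by 2.12 (level-matched 1.21), Hoxb7 by 1.94 (1.19) and Hoxa4 by 1.11 (1.19). Only 8 of the 37 lay above the median gene in Comma-D, against 23 in MMTV-neu.

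**Figure D3:**
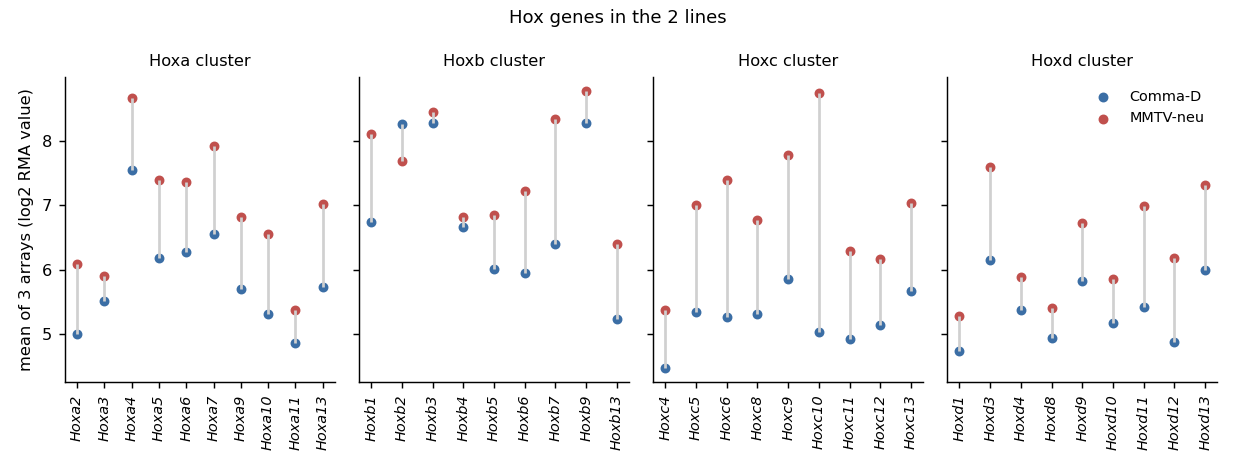
Mean log2 RMA value over 3 arrays of each Hox gene in Comma-D (blue) and MMTV-neu (red), by cluster in order of paralogue number, with a grey line joining the 2 means. Hoxc10 shows the widest gap, and Hoxb2 is drawn with MMTV-neu below Comma-D.

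Of 32 T-box and other homeobox genes, 13 were higher and 5 lower, and level-matched 8 were higher and 3 lower. Tbx2, a repressor that blocks senescence through the Cdkn2a locus, was at 6.78, 6.94 and 6.94 in Comma-D and at 9.205, 9.48 and 9.19 in MMTV-neu. It rose on every array, by 2.41 (5.30-fold, adjusted p = 1.8e-08; level-matched 2.11). Cdkn2a itself was at 7.85 ± 0.02 and 8.29 ± 0.28 (SD, n = 3 each), a difference of 0.44 (level-matched 0.76). Lmx1b rose by 2.01, Irx3 by 1.68 and Six4 by 1.66, with level-matched differences of 2.13, 1.68 and 1.66. Of secreted regulators, Bmp7 rose by 1.86 (level-matched 2.18), and the imprinted Notch-related gene Dlk1 rose by 2.04 (level-matched 1.60).

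Junction genes did not follow Krt8. Epcam, an epithelial adhesion molecule used as a luminal marker, was at 9.57, 9.56 and 9.45 in Comma-D and at 6.01, 5.93 and 5.70 in MMTV-neu. Without overlap, it fell by 3.65 (12.5-fold, adjusted p = 2.9e-07; level-matched -2.10). E-cadherin, Cdh1, fell by 2.29 (level-matched -0.84). The tight junction genes Cldn3 and Cldn1 went in opposite directions, with a difference of 1.19 for Cldn3 (level-matched 1.38) and -1.42 for Cldn1 (level-matched -1.38); the Cldn1 call was lost after centring (difference -0.069). Of 29 adherens and tight junction genes, 4 were higher and 11 lower, and level-matched 3 were higher and 4 lower. Of 13 desmosome genes, which tether keratins to the membrane, 1 was higher and 5 lower, and level-matched 4 were lower and none higher. The desmosomal cadherin Dsg3 fell by 4.37 (level-matched -2.55) and Perp, a desmosomal membrane protein, fell by 3.96 (level-matched -1.35).

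Most mesenchymal transition genes were lower in MMTV-neu. Of 25 genes tied to the epithelial to mesenchymal transition, 18 were lower and 1 higher. Level-matched, 12 were lower and none higher, against 8.22% lower among all genes, and the median was -2.58 with a level-matched median of -0.96. Of the 25, 18 lay in the highest bin by Comma-D level, where the level-matched spread was widest. The share over all genes is therefore not a like background for this list. Vim, the intermediate filament of mesenchymal cells, was at 12.93, 12.93 and 12.95 in Comma-D and at 7.83, 8.29 and 8.26 in MMTV-neu. It fell by 4.805 (28.0-fold, adjusted p = 1.3e-11; level-matched -1.88). Fibronectin, Fn1, was at 13.22, 13.19 and 13.23 and at 6.98, 7.39 and 7.11. It fell by 6.05 (66.4-fold, adjusted p = 7.1e-14; level-matched -3.12). The mesenchymal factor Prrx1, the receptor kinase Axl and the hyaluronan receptor Cd44 fell, with differences of -3.77, -3.94 and -3.46 and level-matched differences of -1.79, -1.62 and -1.52.

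Of 33 other matrix and matricellular genes, 22 were lower and 3 higher, and level-matched 13 were lower and none higher. Periostin, Postn, fell from 12.27, 12.21 and 12.23 to 6.91, 6.04 and 6.29, a difference of -5.82 (56.6-fold; level-matched -3.03). Sparc, Thbs1 and decorin (Dcn) fell, with differences of -5.10, -4.70 and -2.70 and level-matched differences of -2.20, -1.81 and -1.97. Collagens stood apart from them: of 26, 10 were higher and 6 lower, and level-matched 3 were higher and 2 lower, with a level-matched median of 0.45. Col12a1 fell by 4.79 (level-matched -2.04), while the basement membrane anchor Col7a1 rose by 1.34 (level-matched 1.37) and Col27a1 by 1.67 (level-matched 1.31).

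Of 24 integrins and laminins, 13 were lower and 3 higher, and level-matched 5 were lower and 2 higher; Itgb1, the common integrin beta subunit, fell by 4.28 (level-matched -1.75). Of 28 matrix proteases and inhibitors, 14 were lower and 2 higher, and level-matched 9 were lower and none higher. The inhibitor Timp3 fell by 5.48 (level-matched -2.67) and the lysosomal protease Ctsb fell by 5.37 (level-matched -2.61). The medians of these 2 lists, -1.18 and -1.19, turned to 0.18 and 0.16 after centring. Their level-matched medians stayed below 0 under all 20 alternatives, but not all of these could move them. Centring cancels in the matching, and the replicate block, variance prior, stricter threshold and fit of the 2 lines alone leave differences unchanged. Of 15 fibroblast markers, 4 were lower and 3 higher, and level-matched 5 were lower and 1 higher. The fibroblast receptor Pdgfra, at 10.65 in Comma-D, fell by 3.61 (level-matched -1.23). The mean over these markers ran from 7.39 to 7.42 on the Comma-D arrays and from 6.64 to 6.72 on the MMTV-neu arrays, and the part of a mesenchymal-like share of Comma-D cells in these falls was not tested. In bulk samples like these, fewer cells of a type and less RNA per cell cannot be told apart.

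The actin list split. Of 33 genes, 23 were lower and 2 higher, while level-matched 9 were higher and 8 lower. Tmsb10, which binds actin monomers, was at 10.12, 10.11 and 10.18 in Comma-D and at 11.86, 11.68 and 11.60 in MMTV-neu. It rose by 1.57 (adjusted p = 2.8e-08; level-matched 3.55). Profilin, Pfn1, was at 11.85 and 11.55, a difference of -0.31 (1.05 after centring) and a level-matched difference of 2.51. Actb fell by 3.94 (level-matched -1.02, which was 0.03 after cyclic loess), and Cnn2 fell by 4.99 (level-matched -2.23).

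**Figure D4:**
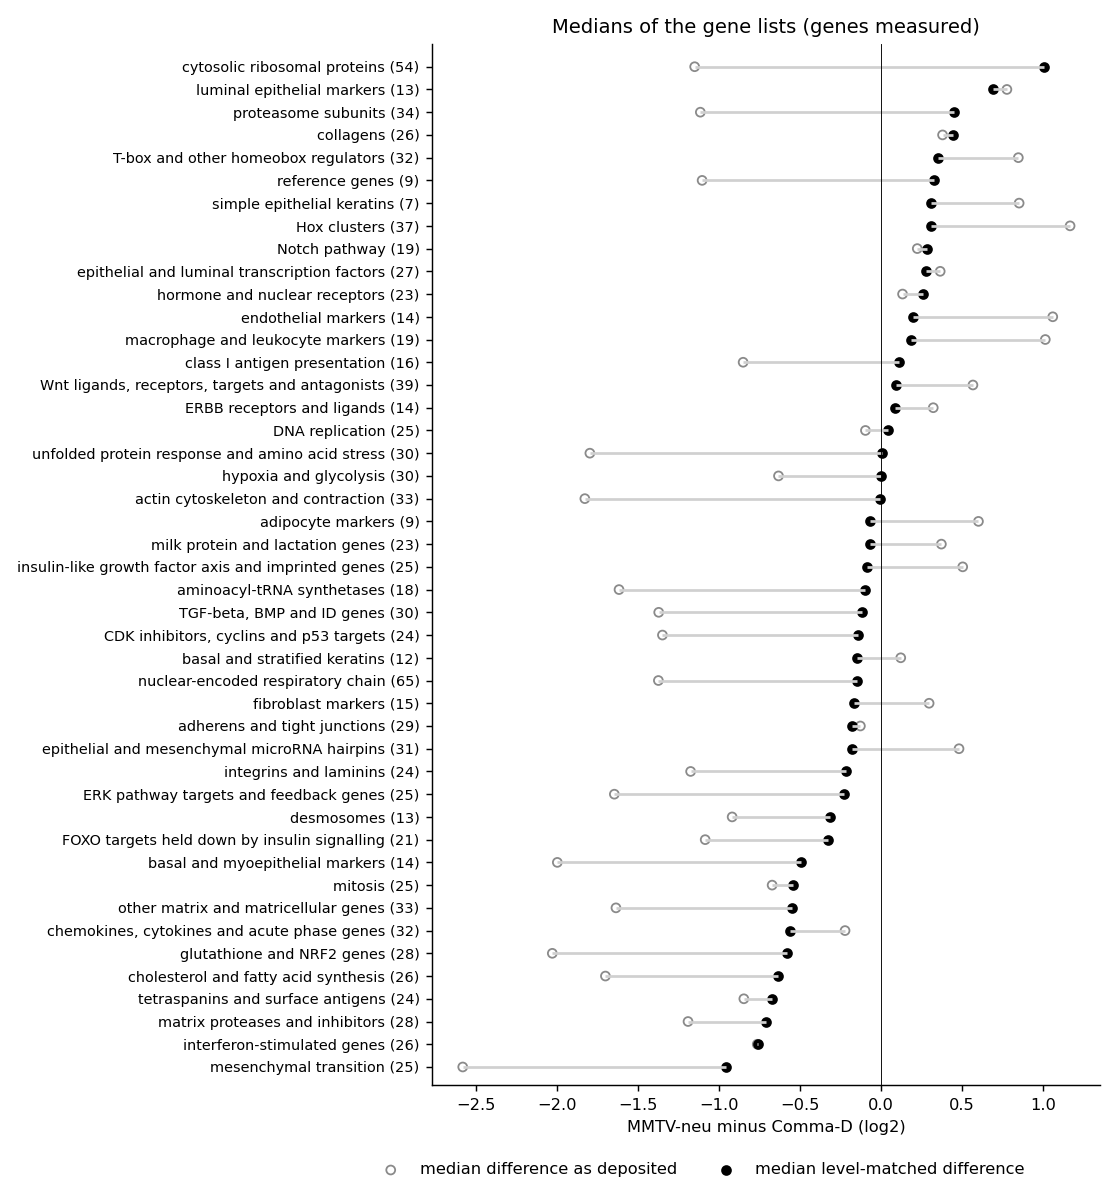
Median over the measured genes of each list (number in brackets) of the difference as deposited (open circles) and of the level-matched difference (black), in log2 units, MMTV-neu minus Comma-D. Among the lists drawn, which leave out the mitochondrially encoded list with 2 genes measured, the mesenchymal list lies lowest level-matched, at -0.96, and the ribosomal list highest, at 1.01, from a deposited median of -1.15.

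Of 32 chemokine, cytokine and acute phase genes, 11 were lower, 3 higher and 18 not called, and level-matched 10 were lower and 1 higher. Their median of -0.22 was 1.13 after centring, and the level-matched median was -0.56. Il6, an inflammatory cytokine, was at 9.497, 9.35 and 9.26 in Comma-D and at 4.87, 4.92 and 5.30 in MMTV-neu. It belongs to the 25 lowest genes given below, for which non-overlap was a condition, and fell by 4.34 (20.2-fold, adjusted p = 2.4e-09; level-matched -2.85). Lipocalin 2, Lcn2, fell by 5.70, from 11.79 to 6.08 (52.1-fold; level-matched -2.90). The complement protease C1s1 fell by 3.81 (level-matched -2.46) and ceruloplasmin, Cp, fell by 4.95 (level-matched -2.16).

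Of 26 interferon-stimulated genes, 11 were lower and 1 higher, and level-matched 5 were lower and 1 higher. Their median of -0.76 turned to 0.59 after centring. The level-matched median of -0.76 stayed below 0 under all 20 alternatives, some of which, centring included, cannot move it. Rtp4, the RNA-sensing kinase Eif2ak2 and the RNA sensor Ddx58 fell, with differences of -3.08, -2.30 and -3.20 and level-matched differences of -2.37, -1.91 and -1.36. Oasl1 was the exception, with a rise of 1.35 (level-matched 1.05). In the class I pathway, B2m, the light chain shared by class I molecules, was at 12.10, 12.06 and 12.06 in Comma-D and at 6.09, 5.26 and 5.94 in MMTV-neu. It fell by 6.31 (79.4-fold, adjusted p = 3.2e-13; level-matched -3.54). Nlrc5, the transactivator of class I genes, rose by 1.32 (adjusted p = 1.2e-05; level-matched 2.53, or 0.21 and not called with the mean of its probe sets), and the immunoproteasome subunit Psmb9 was at 7.59 and 8.44 (difference 0.85, level-matched 0.95). Of the 16 genes, 8 were lower and 1 higher, and level-matched 1 was lower and 1 higher. B2m and Nlrc5 were those 2.

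Of 24 tetraspanins and surface antigens, 12 were lower and 1 higher, and level-matched 9 were lower and 1 higher. Cd63, a tetraspanin of late endosomes, fell by 6.57 (94.7-fold; level-matched -3.72). Cd24a, used in sorting mammary epithelium, fell by 5.18 (level-matched -2.38), and Cd200 fell by 4.91 (level-matched -2.21). Csn3, a casein of milk, fell by 1.88 (level-matched -2.14), and Xdh, an enzyme of milk fat globules, fell by 4.20 (level-matched -1.59). Of 23 milk and lactation genes, 3 were higher and 5 lower, and level-matched 3 were lower and none higher. The Wnt antagonist Sfrp1 fell by 4.69 (level-matched -2.42), Tgfb2 fell by 2.98 (level-matched -1.47) and the Notch ligand Jag1 fell by 1.47 (level-matched -1.03; -0.11 and not called after centring). Wnt4 was at 8.10 and 8.66 (difference 0.56, level-matched 1.07). Its second probe set differed by -0.017, and with the mean of its probe sets the difference was 0.27 (adjusted p = 0.15 with limma). The Wnt list held 11 higher and 10 lower of 39, the TGF-beta list 2 and 18 of 30 and the Notch list 6 and 6 of 19. Level-matched these counts were 4 and 3, 3 and 4, and 0 and 1.

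Several lists follow growth factors and lipids, which differed between the media. FOXO targets are held down by insulin signalling, and insulin was listed for the Comma-D medium alone. Of 21 such genes, 11 were lower and 1 higher in MMTV-neu, and level-matched 3 were lower and 3 higher. Cited2 was at 10.19 and 10.89 (difference 0.70, level-matched 2.74), and the mitochondrial antioxidant Sod2 fell by 3.22 (level-matched -1.75). Of 26 cholesterol and fatty acid synthesis genes, 18 were lower and none higher, and level-matched 6 were lower and 2 higher. The desaturases Scd1 and Scd2 differed by -5.85 and -5.33 (level-matched -3.02 and -2.52), and the sterol enzyme Msmo1 fell by 3.11 (level-matched -1.90). Elovl6, a fatty acid elongase, was at 9.06 and 9.86 (difference 0.80, level-matched 2.03). Whether these values follow the medium or the line cannot be told apart.

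The unfolded protein list held 21 lower and 1 higher of 30, and level-matched 4 lower and 2 higher, with differences of -3.56 for Dnajb9 (level-matched -2.06) and -3.99 for Asns (level-matched -1.22). Of 18 aminoacyl-tRNA synthetases, 14 were lower and none higher, and level-matched 1 was higher and none lower. Of 28 glutathione and NRF2 genes, 18 were lower and none higher, and level-matched 11 were lower and 2 higher. By Comma-D level, 25 of the 30 unfolded protein genes, all 18 synthetases and 21 of these 28 genes lay in the highest bin. In that bin 62.2% of all genes were at least 2-fold lower. The peroxidase Gpx1 fell by 4.25 (level-matched -2.22) and Gstp1 fell by 4.56 (level-matched -1.86). Ferritin heavy chain, Fth1, was at 12.79 and 12.44, a difference of -0.35 (1.00 after centring) and a level-matched difference of 2.57. Hk1, the first enzyme of glycolysis, was at 12.14 and 11.89 (difference -0.25, 1.10 after centring, level-matched 2.54). The second Hk1 probe set, at 9.41 in Comma-D, differed by -1.17. Of 30 hypoxia and glycolysis genes, 11 were lower and 2 higher, and level-matched 3 were lower and 6 higher.

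Both mitochondrially encoded genes on the array were very low in MMTV-neu. COX2, a subunit of cytochrome oxidase, fell from 12.45, 12.39 and 12.45 to 5.46, 4.71 and 4.97, a difference of -7.38 (adjusted p = 1.1e-14; level-matched -4.53), and ND3, a subunit of complex I, fell by 6.55 (level-matched -3.80). Nuclear-encoded subunits did not share this size. Of 65, 39 were lower and none higher, and level-matched 13 were lower and 5 higher. Cox5b was at 10.62 in both lines (level-matched 2.35), while Cox6a1 fell from 10.20 to 5.78 (difference -4.42, level-matched -2.39).

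Translation and turnover genes ran the other way once level was matched. Of 54 cytosolic ribosomal protein genes, 29 were lower and 2 higher as deposited, whereas level-matched 27 were higher and 7 lower. Their level-matched median of 1.01 became -0.23 when genes were matched by the mean of both lines. Rps19 was at 9.92, 10.05 and 9.98 in Comma-D and at 11.52, 11.66 and 11.69 in MMTV-neu, and rose by 1.64 (adjusted p = 7.0e-10; level-matched 3.56). Rpl41 was at 12.15 and 12.72 (difference 0.57, level-matched 3.35). Ribosomal genes have many processed copies in the genome, and 38 of the 54 had a further probe set. For 6 of the 38 it had the opposite sign, and for 9 it lay at least 1 log2 unit away. Rps14 is one: its probe set rose by 1.77, and the other fell by 4.62. Of 34 proteasome genes, 18 were lower and none higher, and level-matched 9 were higher and 4 lower; the level-matched median of 0.45 became -0.11 when matched by the mean of both lines.

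Proliferation genes were mixed, with the mitosis list leaning lower in MMTV-neu. Of 25 mitosis genes, 8 were lower and none higher, and level-matched 7 were lower and 1 higher. Their median of -0.67 turned to 0.68 after centring. The level-matched median of -0.54 stayed below 0 under all 20 alternatives, some of which, centring included, cannot move it. The checkpoint kinase Bub1 fell by 1.36 (adjusted p = 0.024; level-matched -1.34) and the spindle factor Tpx2 fell by 1.37 (adjusted p = 0.0092; level-matched -1.18), both calls being lost after centring (differences -0.0095 and -0.019), while Plk1 was at 8.36 and 9.08 (difference 0.72, level-matched 1.43). Of 25 replication genes, 3 were lower and 1 higher, with differences of -3.19 for the clamp Pcna (level-matched -1.15) and 1.75 for E2f2 (level-matched 1.11). Of 24 cyclin, CDK inhibitor and p53 target genes, 14 were lower and 4 higher, and level-matched 6 were lower and 1 higher. Btg2, Mdm2 and the retinoblastoma gene Rb1 fell, with differences of -3.93, -2.81 and -2.92 and level-matched differences of -1.73, -1.54 and -1.46.

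The 25 genes with the highest level-matched difference were taken from genes called level-matched and above the median gene of MMTV-neu. Genes whose arrays overlapped between the lines and genes with a provisional symbol were left out, so non-overlap was fixed by the rule. The 25 had a median Comma-D level of 10.18 and a median difference of 1.41, with a range from 0.39 to 3.93. Camta1, a calcium-dependent transcription activator, led them at 9.60, 9.47 and 9.73 in Comma-D and 12.21, 12.30 and 12.42 in MMTV-neu, a rise of 2.71 (adjusted p = 3.4e-09; level-matched 4.35). Its 3 further probe sets had Comma-D levels of 4.81 to 5.37 and differences of 0.57 to 1.79, all above 0. The histone gene H2bc14 rose by 1.74 (level-matched 4.25), the GTPase gene Arf6 rose by 1.499 (level-matched 3.63), and Pcbp2, an RNA-binding protein, was at 11.68 and 12.60 (difference 0.92, level-matched 3.70). A second H2b gene, H2bc4, fell by 5.60 (level-matched -3.51), so genes of this repeated family lay at both ends.

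The 25 lowest, taken from genes above the median gene of Comma-D under the same other conditions, had a median difference of -5.79. Of these, 24 of the 25 lay below the median gene of the MMTV-neu arrays. Beside the genes given above they included Xist, the RNA that coats the inactive X chromosome, which fell from 11.70, 11.72 and 11.78 to 5.41, 5.75 and 6.25 (difference -5.93; level-matched -3.12). The nuclear RNA Malat1 fell by 5.79 (level-matched -2.95). Prdx2, a peroxiredoxin, fell by 6.36 (level-matched -3.75), but its second probe set, at 8.33 in Comma-D, differed by -0.24. Over the 999 genes with more than 1 probe set, 485 were called at least 2-fold either way, and in 83.3% of these the next probe set had the same sign.

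Marker lists of other cell types were read in both lines. Of 14 endothelial markers, 10 were at least 2-fold higher and none lower, but 1 lay above the median gene in Comma-D and 6 in MMTV-neu, and none was called level-matched. Of 19 macrophage and leukocyte markers, 10 were higher and 1 lower, 2 lay above the median gene in each line, and level-matched none was higher and 1 lower. That one was Cd14, which fell by 2.33 (level-matched -1.37), and the T-cell gene Cd3e rose by 1.76 (level-matched 0.91). The mean over the endothelial list ran from 5.46 to 5.54 on the Comma-D arrays and from 6.52 to 6.58 on the MMTV-neu arrays, and over the leukocyte list from 5.47 to 5.49 and from 6.10 to 6.33. The 1027 olfactory receptor genes, a group chosen after values were seen and silent in most tissues, differed by a median of 0.53, with 80 at least 2-fold higher and 1 lower. Of 9 adipocyte markers, 2 were higher and 1 lower.

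The array also carries microRNA hairpin genes. A microRNA is cut from a hairpin and recognises targets mainly through its seed, bases 2 to 8. The array reads RNA from the hairpin's locus and not the mature strand, so the sequences here show which hairpins share a seed and not a mature level. Of 6 measured hairpins with the seed AUUGCAC, 5 are shown as read from RefSeq on build GRCm38.p6, with the seed in capitals (mature strand, 5′ to 3′):
Mir25: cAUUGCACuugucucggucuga
Mir32: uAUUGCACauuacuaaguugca
Mir92b: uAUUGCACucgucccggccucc
Mir363: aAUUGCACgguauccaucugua
Mir367: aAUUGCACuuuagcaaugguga

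Mir25, at chr5:138165332-138165353 on the minus strand, was at 7.27, 6.998 and 6.77 in Comma-D and at 9.97, 10.39 and 10.48 in MMTV-neu. It did not overlap and rose by 3.26 (9.60-fold, adjusted p = 2.6e-08; level-matched 2.9998). Mir32, at chr4:56895272-56895293 on the minus strand, rose by 2.38 (level-matched 1.85), and Mir92b rose by 1.51 (level-matched 0.66). Mir363 and Mir367 lay low in both lines, at 4.62 and 4.11 in Comma-D, with level-matched differences of -0.42 and -0.17. The sixth, Mir92-2, was at 4.71 and 5.91 (difference 1.20, level-matched 0.60). The median over the 6 was 0.63 level-matched, and 2 of them, Mir25 and Mir32, were called. These hairpins were chosen after their values were seen. So were those named below other than Mir99a, Mirlet7i, Mir141, Mir200a, Mir200b, Mir200c, Mir203, Mir205, Mir145a and Mir196a-2.

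Mir25 lies in 1 cluster with Mir106b and Mir93, inside the replication gene Mcm7. Both neighbours carry the seed AAAGUGC, as does Mir17 of another cluster:
Mir106b: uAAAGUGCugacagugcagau
Mir93: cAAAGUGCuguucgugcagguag
Mir17: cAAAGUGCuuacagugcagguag

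Mir106b rose by 2.53 (adjusted p = 4.0e-08; level-matched 1.53) and Mir93 by 1.99 (level-matched 0.97). Mir17 was at 4.78 and 4.99 (difference 0.21). The host gene Mcm7 was at 8.98 and 8.34, a difference of -0.65 (0.71 after centring; level-matched 0.57, adjusted p = 0.055). As deposited, the 3 hairpins of the cluster rose while the host's probe set did not. This contrast rests on the deposited scale. Level-matched, the host also lay above 0, and Mir25 and Mir106b were called while Mir93 and Mcm7 were not.

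In 2 further seed groups, members went in opposite directions level-matched. They are shown because their seeds are identical:
Mir99a: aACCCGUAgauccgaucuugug
Mir99b: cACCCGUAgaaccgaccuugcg
Mirlet7g: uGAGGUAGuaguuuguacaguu
Mirlet7i: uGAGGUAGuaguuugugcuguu
Mir98: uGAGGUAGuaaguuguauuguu

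Mir99a was at 6.03, 5.80 and 5.97 in Comma-D and at 5.44, 5.50 and 5.29 in MMTV-neu, a difference of -0.52 (0.83 after centring; level-matched -1.55). Mir99b rose by 1.73 (adjusted p = 2.3e-07; level-matched 1.51). In the let-7 group Mirlet7g rose by 1.87 (level-matched 1.04) and Mirlet7i by 1.70 (level-matched 1.19), while Mir98 was at 5.25 and 5.08 (difference -0.17, level-matched -1.07). Of the 9 measured hairpins matched to a RefSeq mature sequence with the let-7 seed, level-matched 2 were higher and 1 lower.

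Of hairpins known in epithelia, Mir200c rose by 1.49 (level-matched 0.58) and Mir205 by 1.07 (level-matched 0.47), neither called level-matched. Mir205 lay below the median gene in both lines. Others on the list lay near or below 0 level-matched: Mir141 at 0.13, Mir200a at -0.18, Mir200b at -0.52 and Mir203 at -0.54. Mir145a, typical of smooth muscle, fell by 2.24 (level-matched -1.68). Mir196a-2 of the Hoxc cluster rose by 1.83 (level-matched 0.91). Mir421 rose by 3.64 (12.4-fold; level-matched 3.08) and the hypoxia-induced Mir210 by 1.73 (level-matched 2.19). Mir568 fell by 3.001 (level-matched -2.59), as did the transcription factor gene Zbtb20 (difference -5.07; level-matched -2.95), and Mir140 fell to 5.10 from 7.18 (level-matched -2.21). Of the 31 hairpins on the epithelial and mesenchymal list, 6 were higher and 1 lower, and level-matched 1 was higher and 3 lower.

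Of 300 hairpins measured, 259 matched a RefSeq hairpin sequence. Of these 73 were at least 2-fold higher and 5 lower, and level-matched 19 were higher and 7 lower. Hairpins rich in G and C lay higher in both lines. Across the 259, Spearman's rho of G and C content was 0.77 with the Comma-D level, 0.78 with the MMTV-neu level and 0.38 with the level-matched difference. In the richest of 4 bins, from 53.7% to 69.2%, 13 of 65 were higher level-matched and the median was 0.35, and in the poorest bin 2 of 65 were higher and the median was -0.13. The part of base composition in the hairpin differences was not tested.

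**Figure D5:**
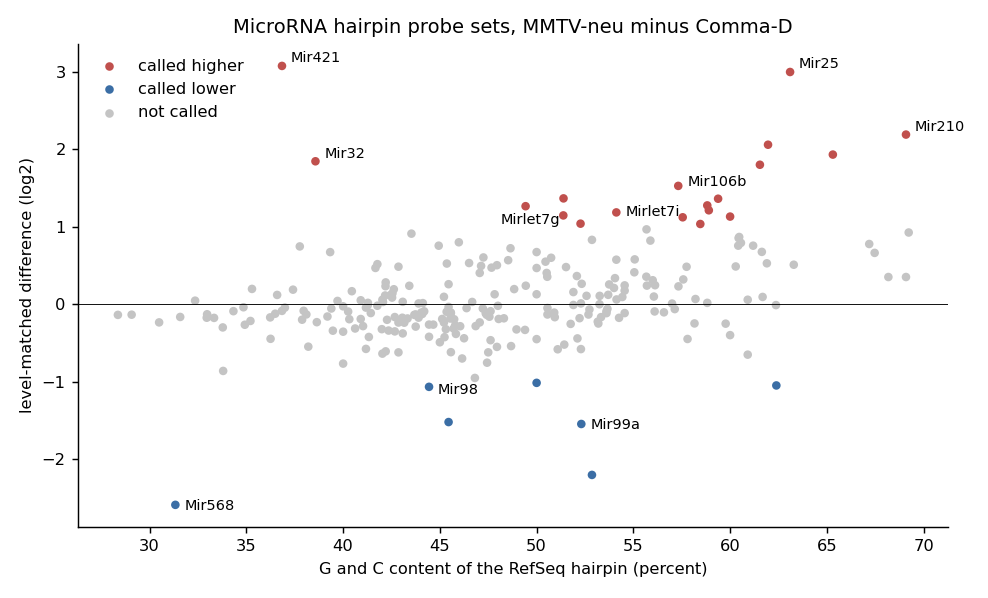
Each point is 1 of 259 microRNA hairpins, with the G and C content of its RefSeq hairpin (percent) on the horizontal axis and its level-matched difference (log2, MMTV-neu minus Comma-D) on the vertical axis; red and blue are called higher and lower. Most red points lie at higher content, with Mir421 and Mir32 as red points at low content and Mir568 lowest.

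The same features were read over genes above the Comma-D median. Promoter G and C content was known for 80.4% of them (8021 genes, RefSeq, 300-base windows), and its rho with the level-matched difference was 0.11. With genes cut into 5 bins, the bin with the poorest promoters had a median of -0.20 and the richest bin 0.11. Gene length on GRCm38.p6 gave a rho of -0.15, with a median of 0.25 in the bin of shortest genes and -0.15 in the longest. Over autosomes, the median level-matched difference ran from -0.11 on chromosome 13 to 0.11 on chromosome 11, where 10.0% of genes were called higher and 5.63% lower. On chromosome X, 3.65% were higher and 10.8% lower. These are descriptions across genes, which are not independent replicates.

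The 1:1 co-culture fractions were grown in the Comma-D medium, so their levels were set beside those of the lines. How much RNA of the other line each fraction held was not tested, and no test was made. In the erbB2-positive fraction Krt8 was at 11.28, Foxa1 at 9.61, Tbx2 at 8.78 and Hoxc10 at 7.92, each nearer to MMTV-neu than to Comma-D. Il6 was at 5.10, C1s1 at 5.54, Ghr at 6.95 and Epcam at 6.84, also nearer to MMTV-neu. Fn1 was at 11.64, Vim at 11.83, B2m at 9.95 and Krt14 at 9.70, nearer to Comma-D, and COX2 was at 12.22. The erbB2-negative fraction also lay nearer to MMTV-neu for several of these genes, with Krt8 at 10.76, Foxa1 at 8.83, Il6 at 6.18, C1s1 at 6.80, Ghr at 8.64 and Epcam at 7.66. It lay nearer to Comma-D for Tbx2 at 7.90, Hoxc10 at 6.56, Fn1 at 12.79, Vim at 12.79, B2m at 11.46, Krt14 at 10.98 and COX2 at 12.54. Over the 25 highest genes the median level was 11.35 in the erbB2-positive fraction and 11.66 in MMTV-neu. Over the 25 lowest it was 9.24 in that fraction, between 5.41 in MMTV-neu and 11.60 in Comma-D.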

How the data were processed

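Total RNA of 18 samples (6 groups of 3) was measured on oligonucleotide arrays. The deposited log2 values were made by the authors with RMA, and R 3.1.2 and limma are named in the submitters' processing notes. Of 35556 probe sets, 21789 named 1 gene in GEO's platform annotation, 1621 several, and 12146 none listed. A gene took its single-gene probe set with the highest mean over 18 arrays. Scanner files were not used here, so background and detection calls are unknown, and the number of arrays limits precision. Differences were fitted with limma 3.58.1 (R 4.3.3; lmFit, eBayes, two-sided, Benjamini-Hochberg over 19938 genes) on all 18 arrays and 6 group means, with 12 residual degrees of freedom. For level-matched values, the running median over genes ranked by Comma-D mean was subtracted from each array's deviation from that mean. The matching was tested on simulated data that followed the same running median, with known shifts added. Such a test covers the computation and cannot tell whether Comma-D level is the right level to match on. Named genes were the 25 highest and 25 lowest level-matched genes by rule, up to 6 per list, a few keratin, ERBB and other defining genes, and listed hairpins. The members and 46 gene lists were chosen with earlier results of these data known. Alternatives covered filtering, probe sets, arrays fitted, normalization, variance prior, weights, threshold, window and matching level.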

Additional observations from a re-analysis of the deposited data

How the results depend on the processing

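The counts of genes at least 2-fold higher and lower, 3800 and 3707, depended on scaling. The higher count was 2214 without the least expressed 40% of genes, 1805 after cyclic loess and 14038 after centring on reference genes, where the lower count was 1036. Level-matched, the higher count was 2294 and the lower 2842 after quantile normalization, and the lower count was 2879 when matched by the mean of both lines and 2667 by the mean of 18 arrays. The median of the lowest bin by Comma-D level was 1.09 without the least expressed genes, 0.082 after quantile normalization, 0.038 after cyclic loess and 1.96 after centring, and that of the highest bin was -1.76, -0.59, -0.50 and -0.012. The range of autosome medians was 0.32 as deposited. Leaving out 1 array at a time gave 3715 to 3943 genes higher, 3641 to 3766 lower, and level-matched 1357 to 1413 higher and 1571 to 1693 lower. Signs turned as follows, and the cause was not tested. After quantile normalization, cyclic loess and centring in turn, Krt18 differed by 0.29, 0.29 and 0.58, Gata3 by 0.27, 0.58 and 0.48, Pfn1 by 0.60, 2.21 and 1.05, Fth1 by 0.00619, 2.50 and 1.00, Hk1 by 0.49, 2.36 and 1.10, and Mcm7 by 0.31, 0.41 and 0.71. After centring alone, Erbb3 differed by 0.24, Ereg by 0.13 and Mir99a by 0.83. After cyclic loess, Mir367 differed by -0.0730 and Actb by 0.031 level-matched. With the mean of its probe sets, Rps14 differed by -1.43. Same-numbered arrays of the lines had correlated deviations of 0.015, 0.038 and 0.011, so the numbers were not taken as pairs, and the replicate block gave 3800, 3707, 1366 and 1640 genes. Without detection calls, values of dim genes in either line cannot be told from background.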

Other observations

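Further groups of genes, chosen after values were seen, are given as values. Of 347 zinc finger genes named Zfp, level-matched 15 were higher and 83 lower in MMTV-neu, with a level-matched median of -0.30. Of 51 small nucleolar RNA genes, level-matched 2 were higher and 17 lower, with a level-matched median of -0.75. Of 22 cluster histone genes, level-matched 9 were higher, 1 lower and 12 not called, with a level-matched median of -0.076. Over the 12146 probe sets with no gene listed, the median difference was 0.28, and 273 were at least 2 log2 units higher and 984 lower.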
